A study of Mus musculus with 14 samples.

Results

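Genes of carcinogen and xenobiotic detoxification were followed in mouse epidermal cells with and without G9a (gene Ehmt2), an enzyme that methylates lysine 9 of histone H3. The set was defined by gene names: cytochromes P450 of the Cyp1a, Cyp1b and Cyp2a to Cyp2j subfamilies, aldehyde dehydrogenases (Aldh), glutathione S-transferases of the a, k, m, o, p and t classes (Gst), UDP-glucuronosyltransferases (Ugt), sulfotransferases (Sult), and Nqo1, Ephx1, Hmox1, Gclc and Gclm. It held 96 of the 17097 genes measured, of which 16 were Gst, 11 Ugt, 21 Aldh, 13 Sult, 3 Cyp1 and 27 Cyp2 genes, with 5 further redox genes. Expression was measured on Affymetrix arrays as log2 signals in mice aged 15 weeks with homeostatic skin. The groups were bulge cells of G9a conditional knockout (cKO) mice (n = 4), bulge cells of G9a wild-type (WT) mice (n = 3), interfollicular epidermis (IFE) cells of cKO mice (n = 4) and IFE cells of WT mice (n = 3). The bulge is the part of the hair follicle that houses its stem cells, and the IFE is the sheet of epidermis between follicles. The sources used here do not name the Cre driver of the knockout, the time of deletion, the strain or the way cells were isolated. They also do not say whether replicates were separate animals, so p-values measure only the spread between these samples, which may be technical.

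Detoxification runs in phases. In phase I, cytochromes P450 oxidise lipophilic compounds such as polycyclic aromatic hydrocarbons, often to reactive epoxides or aldehydes, which epoxide hydrolase and aldehyde dehydrogenases convert further. In phase II, glutathione, glucuronic acid or sulfate is attached to make products that can be exported. The aryl hydrocarbon receptor (Ahr, with its partner Arnt) and Nfe2l2, a transcription factor of the oxidant response, are the best known inducers of these genes. Skin is an organ in which they meet topical carcinogens.

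Promoter sequences are shown for 5 genes that the results turn on: Cyp1b1, Gclm and Gstm5, which were higher in the WT bulge than in the WT IFE, and Ugt1a6a and Ugt1a9, which were higher in cKO than in WT bulge cells. Each runs 5′ to 3′ from 250 bases before to 50 bases after a RefSeq start (GRCm38.p6), which is the first base of the annotated gene except for Gclm, where it lies 70 bases inside it. In each, capitals mark the letters GCGTG, the core bound by Ahr with Arnt, or TGACNNNGC, the core of the antioxidant response element, on either strand. The Cyp1b1 window lies at chr17:79715012-79715311 on the minus strand, and the others lie on the plus strand at chr3:122245307-122245606 (Gclm), chr3:107895604-107895903 (Gstm5), chr1:88134559-88134858 (Ugt1a6a) and chr1:88070529-88070828 (Ugt1a9).
Cyp1b1: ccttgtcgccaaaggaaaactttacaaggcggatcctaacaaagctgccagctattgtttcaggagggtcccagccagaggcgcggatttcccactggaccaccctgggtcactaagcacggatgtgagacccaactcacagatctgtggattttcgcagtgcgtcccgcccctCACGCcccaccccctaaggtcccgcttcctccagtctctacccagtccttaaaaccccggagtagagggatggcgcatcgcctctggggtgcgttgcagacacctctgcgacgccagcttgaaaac
Gclm: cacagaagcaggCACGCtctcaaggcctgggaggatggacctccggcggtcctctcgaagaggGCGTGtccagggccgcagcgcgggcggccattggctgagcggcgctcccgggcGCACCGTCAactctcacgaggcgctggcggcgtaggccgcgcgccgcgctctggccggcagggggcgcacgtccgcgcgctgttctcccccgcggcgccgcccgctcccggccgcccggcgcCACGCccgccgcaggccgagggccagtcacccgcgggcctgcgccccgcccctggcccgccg
Gstm5: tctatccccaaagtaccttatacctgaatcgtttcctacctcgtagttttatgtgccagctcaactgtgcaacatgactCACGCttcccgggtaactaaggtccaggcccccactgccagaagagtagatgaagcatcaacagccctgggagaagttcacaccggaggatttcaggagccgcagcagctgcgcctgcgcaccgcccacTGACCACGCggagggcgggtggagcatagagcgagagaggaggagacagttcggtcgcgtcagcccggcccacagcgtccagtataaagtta
Ugt1a6a: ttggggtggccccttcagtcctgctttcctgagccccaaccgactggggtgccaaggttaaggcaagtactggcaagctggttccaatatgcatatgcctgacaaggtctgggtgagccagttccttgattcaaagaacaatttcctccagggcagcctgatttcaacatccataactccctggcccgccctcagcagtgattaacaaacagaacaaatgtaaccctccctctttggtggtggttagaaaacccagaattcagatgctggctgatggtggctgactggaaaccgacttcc
Ugt1a9: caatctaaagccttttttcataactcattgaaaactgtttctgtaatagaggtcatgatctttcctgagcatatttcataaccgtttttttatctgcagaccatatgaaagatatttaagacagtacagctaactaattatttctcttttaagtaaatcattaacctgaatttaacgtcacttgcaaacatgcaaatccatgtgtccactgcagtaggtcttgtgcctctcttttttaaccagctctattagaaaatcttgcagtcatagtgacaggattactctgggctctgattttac

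The Cyp1b1 window held 1 GCGTG, the Gclm window 3 GCGTG and 1 TGACNNNGC, and the Gstm5 window 2 GCGTG and 1 TGACNNNGC, with 1 of those GCGTG lying inside the TGACNNNGC match. Neither run of letters was present in the windows of Ugt1a6a and Ugt1a9. Of all 32851 promoter windows in the reference, 32.4% held GCGTG and 12.4% held TGACNNNGC. A promoter was listed for 78 of the 96 genes, in 91 windows, of which 26.4% held GCGTG and 6.59% held TGACNNNGC. These matches describe the letters of the windows only. The Ugt1a6a and Ugt1a9 windows start 64030 bases apart, and in the annotation both genes end at the same base, as do 7 of the 9 Ugt1a genes: each gene has its own first exon joined to exons that the locus shares. The probe sets of both genes are marked by the array's design as reading more than 1 transcript, so signals of Ugt1a6a and Ugt1a9 cannot be fully told apart from those of their neighbours in the locus.

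The arrays followed their labels for the knocked-out gene and the compartments, with exceptions in the cKO groups. One of the 2 probe sets of Ehmt2 read 5.85 to 6.09 on the 8 cKO arrays against 9.51 to 9.78 on the 6 WT arrays, while the other read 7.84 to 8.05 on all 14. All 14 bulge stem cell markers tested were higher in the WT bulge than in the WT IFE. Bulge cKO replicates 2 and 3 stood apart from replicates 1 and 4: they lay at -6.9 and -11.3 on the first principal component, against -36.7 and -37.2 for replicates 1 and 4 and -48.2 to -42.4 for bulge WT arrays, where IFE arrays lay between 23 and 40.1. The mean of 16 epidermal differentiation markers, in the order of the 4 bulge cKO replicates, was 7.43, 9.13, 8.91 and 8.41, against 6.93 to 7.50 on bulge WT arrays. The mean of 14 bulge stem cell markers was 10.10, 9.38, 9.55 and 10.36 in bulge cKO cells against 10.35 to 10.57 in bulge WT cells. Langerhans cell markers (10 genes) averaged 7.08, 7.65, 7.43 and 7.26 in bulge cKO cells against 6.65 to 6.83 in bulge WT cells. Of these 10, 4 were called higher, where 1.98% of all genes were. T cell markers (7 genes) averaged 5.68, 6.53, 6.64 and 6.27 against 5.47 to 5.69. None of them was called and 6 had an unadjusted p under 0.05 in limma, which 25.7% of all genes passed. Sebaceous gland and upper follicle markers (12 genes) averaged 7.46, 8.20, 7.85 and 7.62 against 7.11 to 7.47, with 1 called higher. In the IFE, the bulge stem cell markers averaged 7.31, 7.83, 7.87 and 7.34 on cKO replicates 1 to 4, against 7.33 to 7.45 on WT arrays. In such samples of many cells, a different share of cells of a type and a different RNA level per cell cannot be told apart.

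To place signals of single genes, a background level was taken from 81 olfactory, vomeronasal and taste receptor genes, which epidermis is not known to use; the 95th percentile of their mean signals was 6.04. By this level 38 of the 96 genes were above background in at least 1 group and 58 were near or under it in all 4. Counts above background were 11 of 16 Gst, 3 of 11 Ugt, 12 of 21 Aldh, 2 of 13 Sult, 1 of 3 Cyp1 and 4 of 27 Cyp2 genes, and all 5 redox genes.  All 7 Ugt2 genes were at background, as were Cyp1a1 and Cyp1a2, the classic Ahr-induced P450 genes. A signal near this level does not show that a gene was silent. Of these 58 genes 10 (17.2%, where 35.1% of all genes were) were called between the WT compartments, 5 higher and 5 lower in the bulge.

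**Figure D1:**
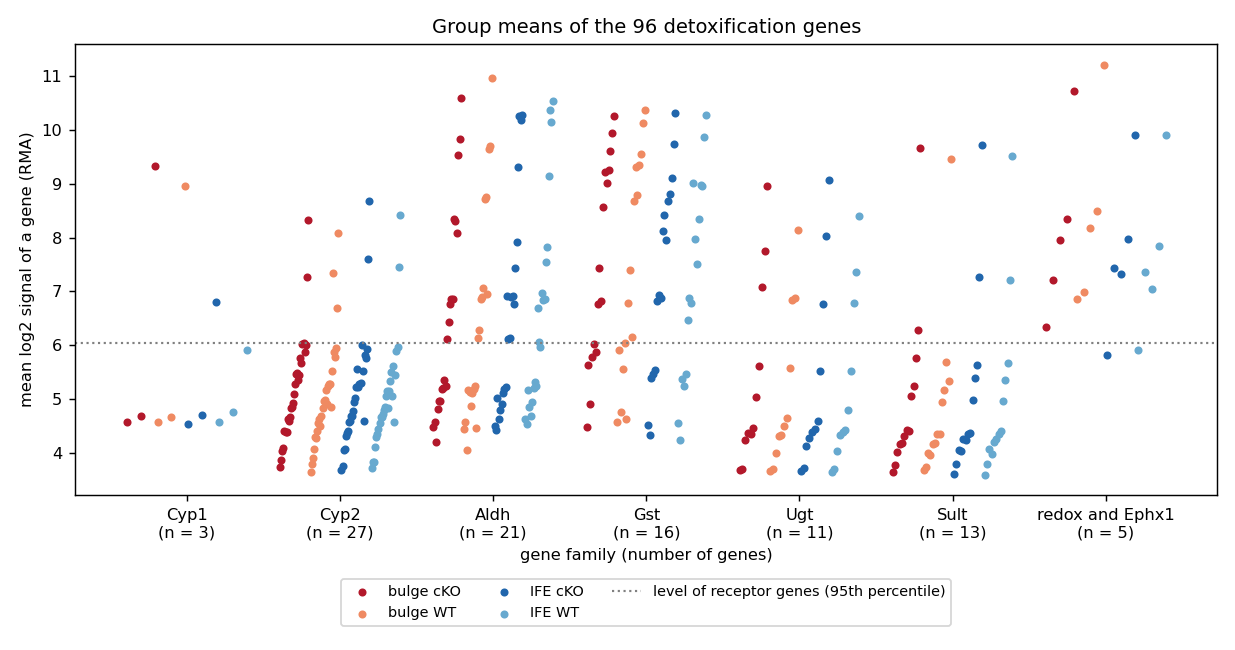
Mean log2 signal of each of the 96 genes (vertical axis) in bulge cKO (n = 4), bulge WT (n = 3), IFE cKO (n = 4) and IFE WT (n = 3) arrays, by gene family (horizontal axis), each point being a gene. The dotted line at 6.04 is the 95th percentile of receptor genes, and 23 of 27 Cyp2 and 11 of 13 Sult genes lie near or under it in all 4 groups.

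More detoxification genes were called between the compartments of WT skin (37.5%) than with G9a genotype (7.29% in bulge, 0.00% in IFE). All genes ran the same way, with 35.1%, 3.84% and 0.497% called in the same order. Between WT bulge and WT IFE, 36 of the 96 genes passed an adjusted p of 0.05 in limma (Benjamini-Hochberg over all 17097 genes), 23 higher in the bulge and 13 lower. These were 24.0% and 13.5% of the set, where 18.4% of all genes were higher and 16.6% lower. The set as a whole thus stood near the shares of all genes, and its median log2 difference of -0.02 was like theirs (-0.01). That holds for the set with its many genes near background. With dim probe sets left out of the fit, 23 of 34 members were called, where 4587 of 9442 genes were. The families divided. Of the Gst genes 9 were higher in the bulge and 3 lower, of the Aldh genes 7 and 4, of the redox genes 4 and 1, of the Cyp2 genes 2 and 3, of the Cyp1 genes 1 and 0, and of the Sult genes 0 and 2. None of the 11 Ugt genes passed in limma, with 1 (9.09%), Ugt1a9, at an unadjusted p under 0.05, where 43.7% of all genes were. Of the 36 genes, 25 passed in each of 14 fits that left out 1 array, 17 higher and 8 lower in the bulge.

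**Figure D2:**
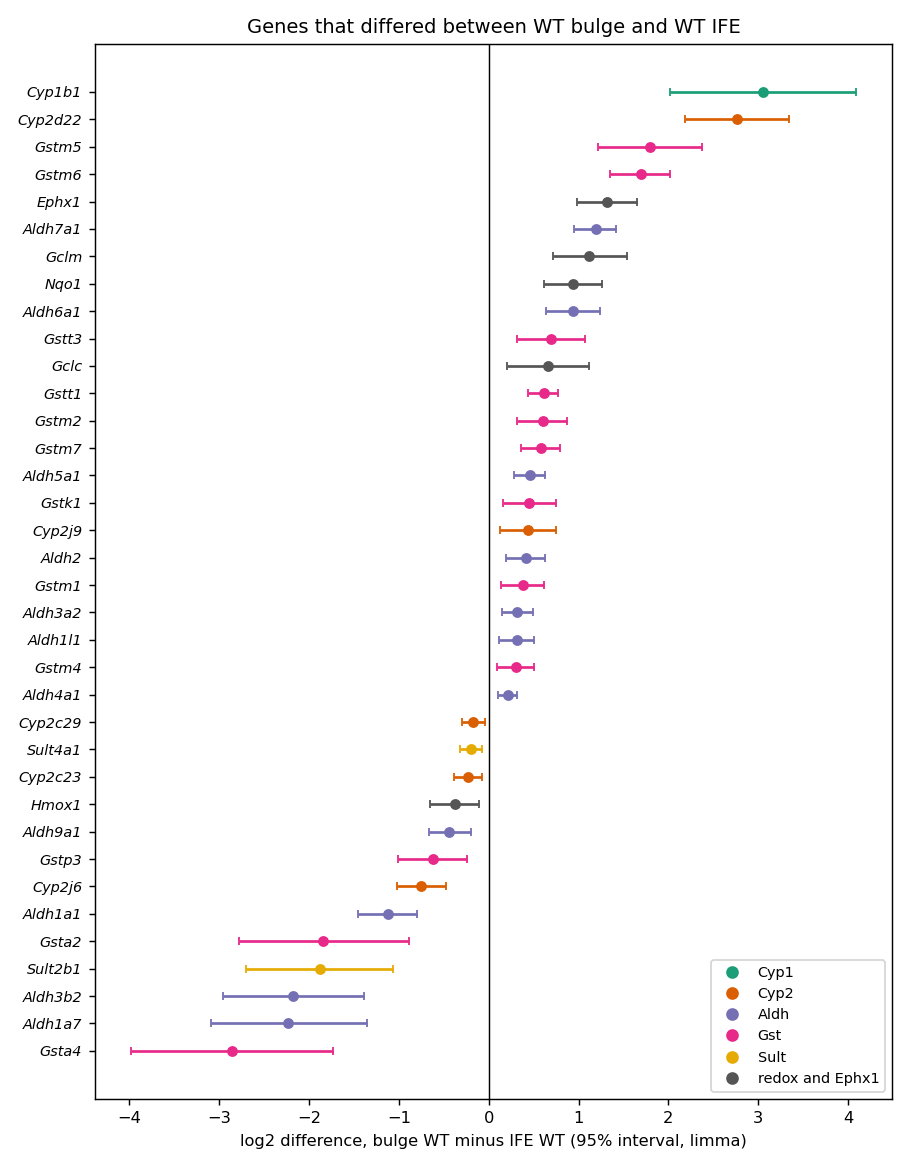
Log2 difference, WT bulge minus WT IFE (horizontal axis), with its 95% interval from limma for the 36 genes that passed the test, coloured by family (n = 3 arrays in each group). Differences run from 3.05 for Cyp1b1 to -2.86 for Gsta4.

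Among the P450 genes, Cyp1b1, which oxidises polycyclic aromatic hydrocarbons and is a target of Ahr, showed the largest difference in favour of the bulge. It read 8.88, 8.71 and 9.31 on WT bulge arrays, against 6.46, 5.62 and 5.67 on WT IFE arrays (log2 difference 3.05 ± 0.48, SE; limma adjusted p = 0.000399). No bulge array overlapped an IFE array. The other 2 probe sets of the gene gave 1.91 and 0.08. In IFE cKO cells Cyp1b1 read 5.90, 7.66, 7.48 and 6.21, so that replicates 2 and 3 were high and the other two lay within the range of the WT arrays (log2 difference 0.90, adjusted p = 0.499). These are the IFE cKO arrays on which the bulge markers were high too, and the part of that in the Cyp1b1 values was not tested. Of 8 fibroblast markers 1 was called (12.5%, where 35.1% of all genes were) and 5 were positive, with a median log2 difference of 0.07. Single differences ran from -0.19 to 2.67. The mean of these markers was 5.83 to 6.10 on WT bulge arrays against 5.41 to 5.71 on WT IFE arrays. Their part in the Cyp1b1 difference was not tested.

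Cyp2d22, of the drug-metabolising 2d subfamily, was above background in the WT bulge alone. It read 7.79, 7.16 and 7.07 there, against 4.55, 4.70 and 4.49 on WT IFE arrays (log2 difference 2.76 ± 0.27, SE; limma adjusted p = 1.96e-05). The IFE arrays lie under the background level, and a second probe set gave 1.31. Cyp2j9 was higher in the bulge by 0.44 (limma adjusted p = 0.0289), with means of 5.88 and 5.44, both under the background level. Leaving out single arrays, its adjusted p ran from 0.0111 to 0.0908. Cyp2j6, of the subfamily that epoxidises arachidonic acid, ran the other way, with 6.84, 6.48 and 6.78 on WT bulge arrays against 7.50, 7.41 and 7.43 on WT IFE arrays (-0.75 ± 0.12, SE; adjusted p = 0.000612); its other probe set, at background, gave 0.03. The 2 genes lie in 1 cluster on chromosome 4. Cyp2c23 (-0.23, adjusted p = 0.0303) was lower in the bulge at background signal. Cyp2b10, of a subfamily known in liver for its induction by drugs, read 7.68 to 8.76 on WT bulge and 7.98 to 8.74 on WT IFE arrays, and its difference had a 95% interval from -1.01 to 0.33.

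Epoxide hydrolase 1 (Ephx1), which opens the epoxides that P450 enzymes make from aromatic hydrocarbons, was also higher in the bulge. Its signals were 11.36, 11.20 and 11.10 on WT bulge arrays, against 9.88, 10.05 and 9.78 on WT IFE arrays (log2 difference 1.32 ± 0.16, SE; limma adjusted p = 6.43e-05). The groups were separated by more than a log2 unit.

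The aldehyde dehydrogenases split between the compartments. Higher in the bulge were the mitochondrial enzymes Aldh6a1, of valine breakdown (0.94, limma adjusted p = 0.000255), and Aldh2, which clears acetaldehyde (0.41, adjusted p = 0.00722), and Aldh7a1, of lysine breakdown (1.19, adjusted p = 1.57e-05). The other Aldh7a1 probe sets gave 0.77 and, at background, 0.11. Aldh4a1, of proline breakdown, was higher by 0.21 (adjusted p = 0.00715) and Aldh1l1, of folate metabolism, by 0.31 (adjusted p = 0.0154), the second at background and with no such difference on its other probe set (-0.03). The larger differences lay in favour of the IFE. Aldh3b2, which oxidises lipid-derived aldehydes, read 6.93, 6.58 and 7.38 on WT bulge arrays against 9.44, 8.89 and 9.09 on WT IFE arrays (-2.18 ± 0.36, SE; adjusted p = 0.000598). Aldh1a7 read 4.68, 4.17 and 4.54 on WT bulge arrays against 7.07, 6.48 and 6.53 on WT IFE arrays (-2.23 ± 0.40, SE; adjusted p = 0.000953). In both genes every bulge array was lower than every IFE array. Aldh1a1, which makes retinoic acid from retinal, differed by -1.12 (adjusted p = 0.000135) under the background level, and Aldh9a1 by -0.44 (adjusted p = 0.00683).

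In phase II, the Gst classes differed in direction. Of the 7 Gstm genes, which lie together at chr3:107895854-108045179, 6 were higher in the bulge and none lower, with Gstm3 (-0.10) not called. These genes are close paralogs, and some of their probe sets are marked as matching several transcripts, so the 6 are not independent measurements. Gstm4, Gstm6 and Gstm7 were near or under background in all 4 groups. The other Gstm7 probe set gave -0.01, and those of Gstm1 gave 0.33 and, at background, 0.21 and -0.02. Gstm5 read 9.48, 9.23 and 9.22 on WT bulge arrays against 7.88, 7.43 and 7.22 on WT IFE arrays (1.80 ± 0.27, SE; limma adjusted p = 0.000274). Gstm6 read 5.98, 5.77 and 6.01 against 4.21, 4.24 and 4.24 in the same order of groups, all under the background level (1.69 ± 0.15, SE; adjusted p = 1.57e-05). For both genes the bulge arrays were all higher than the IFE arrays. Gstt1, which conjugates small halogenated compounds, and its neighbour Gstt3 on chromosome 10 were higher by 0.61 and 0.69 (adjusted p = 9.21e-05 and 0.00751).

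Both Gsta genes were lower in the bulge by the probe set that stands for each, though the other one of Gsta2 was not called (-0.43, limma adjusted p = 0.115 over all probe sets). Gsta4, the enzyme that conjugates the lipid peroxidation product hydroxynonenal, read 6.28, 6.10 and 6.10 on WT bulge arrays against 9.67, 9.33 and 8.05 on WT IFE arrays (-2.86 ± 0.52, SE; limma adjusted p = 0.00103). Gsta2 read 4.65, 4.42 and 4.83 on WT bulge arrays against 6.93, 5.89 and 6.59 on WT IFE arrays (-1.84 ± 0.43, SE; adjusted p = 0.00559). The IFE arrays varied in each gene but did not reach down to the bulge arrays. Gstp3, at background, differed by -0.62 (adjusted p = 0.0159). Gsto1 and Gstp1, both well above background in all groups, were not called, and the 95% interval of their log2 difference ran from -0.08 to 0.28 and from -0.02 to 0.55.

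Sulfotransferase 2b1 (Sult2b1), which sulfonates cholesterol in differentiating keratinocytes, read 5.60, 4.96 and 5.46 on WT bulge arrays against 7.63, 6.97 and 7.06 on WT IFE arrays. The difference was -1.88 ± 0.38 (SE; limma adjusted p = 0.00202) without overlap of arrays. Sult4a1 differed by -0.20 at background (adjusted p = 0.0189), and Sult5a1, the other sulfotransferase above background, had an interval from -0.35 to 0.25. Differentiation markers moved with the genes that were lower in the bulge: 9 of 16 were lower in the WT bulge, where 16.6% of all genes were, and none higher. The mean of these markers was 6.93 to 7.50 on WT bulge against 8.51 to 9.11 on WT IFE arrays. Their part in the differences of Aldh3b2, Gsta2, Gsta4 and Sult2b1 was not tested.

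The enzymes of glutathione synthesis and quinone reduction were higher in the bulge. Gclm, the modifier subunit of the enzyme that limits glutathione synthesis, read 8.16, 8.29 and 8.08 on WT bulge arrays against 7.14, 7.19 and 6.84 on WT IFE arrays (1.12 ± 0.19, SE; limma adjusted p = 0.000706). Its catalytic partner Gclc differed by 0.66 (adjusted p = 0.0283). Nqo1, the quinone reductase, read 7.02, 6.83 and 6.73 on WT bulge arrays against 5.97, 5.97 and 5.82 on WT IFE arrays, the second group under the background level (0.94 ± 0.15, SE; adjusted p = 0.000441). For Gclm and Nqo1 the arrays of the 2 groups did not overlap. Hmox1, which breaks down heme, was lower in the bulge by a small amount (-0.38, adjusted p = 0.0325).

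**Figure D3:**
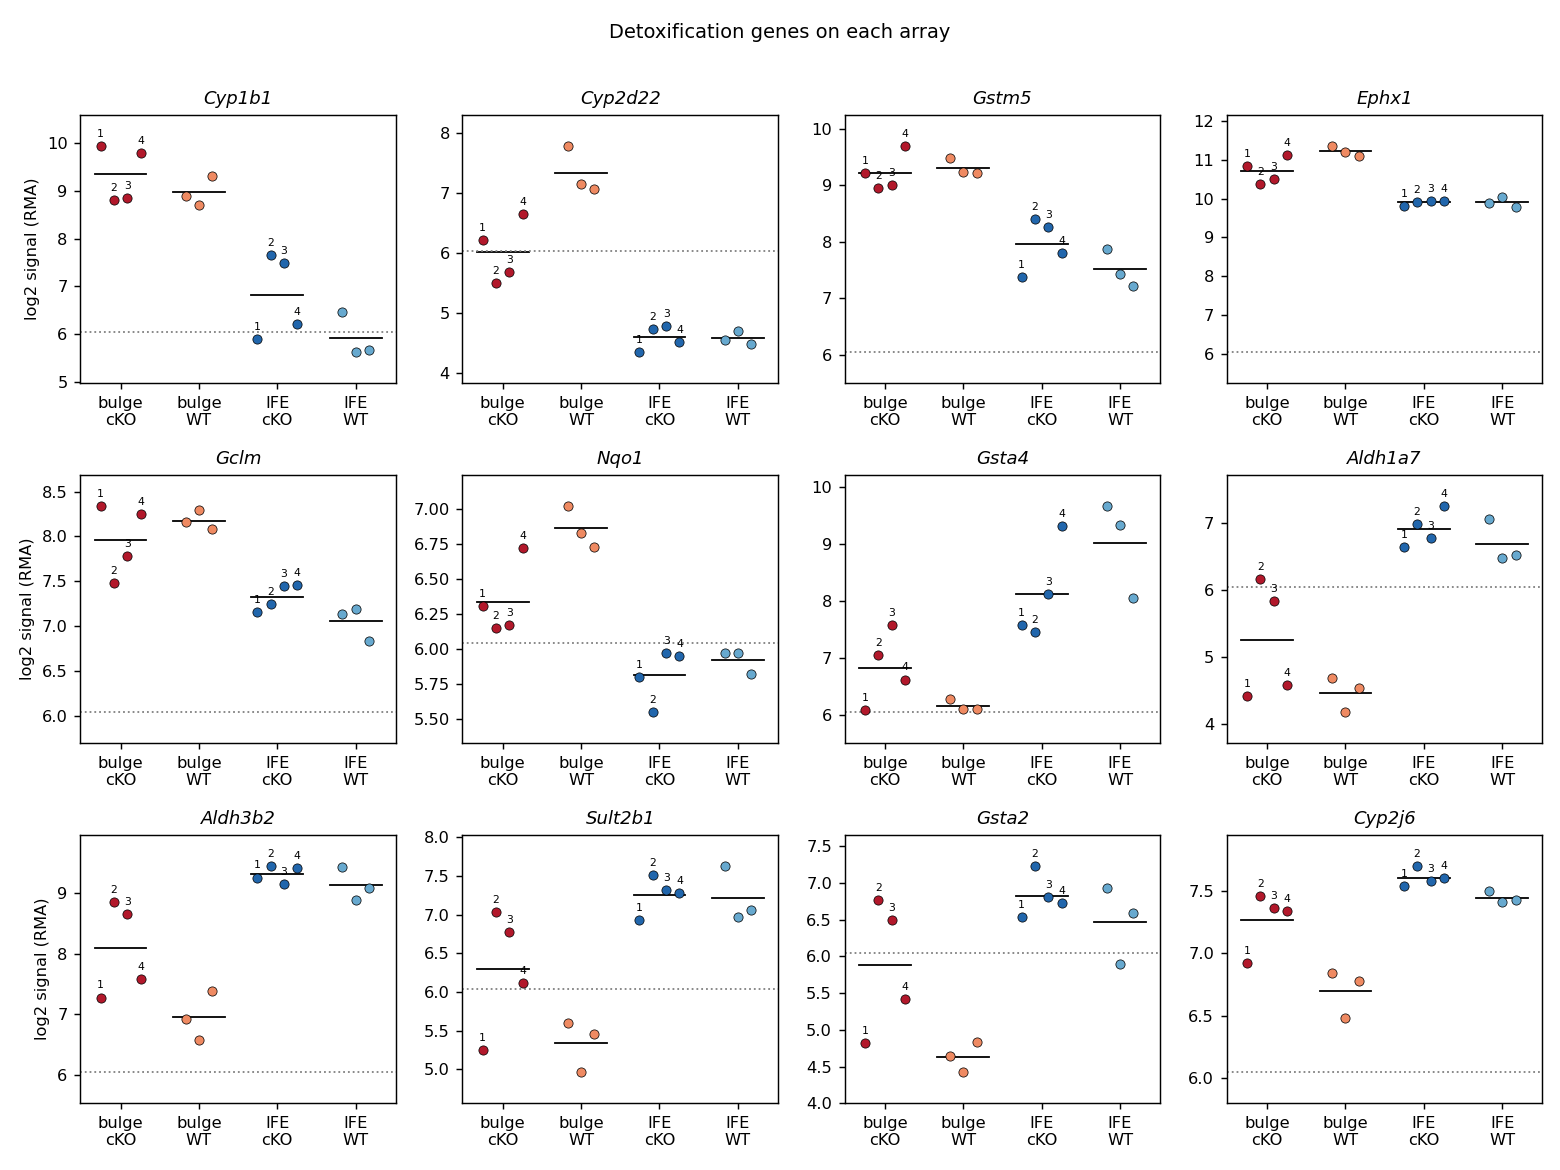
Log2 signal of 12 genes (vertical axes differ between panels and do not start at 0) on every array of the bulge cKO, bulge WT, IFE cKO and IFE WT groups. Points are arrays, numbers are cKO replicates, bars are group means, and the dotted line is the background level of 6.04; Gsta2, Aldh1a7, Aldh3b2 and Sult2b1 were highest on bulge cKO replicates 2 and 3 among the bulge arrays.

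Genes that act with the set did not share 1 direction between the WT compartments. Of 58 measured genes on 5 lists, 30 (51.7%) passed the test, where 35.1% of all genes did. Of the receptors and regulators, 1 of 10 was higher in the bulge and 5 lower. Ahr read 6.32, 6.41 and 6.73 on WT bulge arrays against 9.77, 9.18 and 9.62 on WT IFE arrays (-3.04 ± 0.33, SE; limma adjusted p = 3.94e-05), and Tiparp, an Ahr target that restrains it, was lower too (-1.23, adjusted p = 0.000244). Arnt was higher (0.69, adjusted p = 0.0024), the repressor Ahrr was at background (-0.01), and Nfe2l2 differed by -0.57 (adjusted p = 0.0154). Cyp1b1 was higher, and Ahr lower, on the same WT bulge arrays. Of the electron donors of P450, Cyb5r3 was called (0.99) among 3. Among 21 other conjugating and hydrolysing enzymes 7 were higher and 2 lower, such as Papss2, which makes the sulfate donor (1.06), the second epoxide hydrolase Ephx2 (0.84), and the microsomal transferases Mgst2 (-2.15) and Mgst3 (-0.90). Of 8 export pumps 1 was higher (Abcc5, 0.54) and 3 lower (Abcc4 -2.61, Abcc1 -1.13 and Abcb1b -1.07). Of 16 thioredoxin and glutathione genes 5 were higher, with Ftl1 (1.29) and Gpx2 (1.19), and 5 lower, with Gsr (-1.18).

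Few of these genes were called with G9a genotype in the bulge. In bulge cKO against bulge WT cells, 4 of the 96 genes were higher and 3 lower at a limma adjusted p under 0.05, which is 4.17% and 3.12% of the set where 1.98% of all genes were higher and 1.85% lower (7 genes, 7.29%, against 3.84% in all). At an unadjusted p under 0.05 in limma there were 27 genes (28.1%), where 25.7% of all genes passed. The signals of 20 genes, 20.8%, did not overlap between the groups, where 18.5% of all genes did so. The bulge WT arrays also serve in the comparison of the compartments above. None of the 7 calls held in each of the 14 fits that left out 1 array. The count was 0 without bulge cKO replicate 3, without bulge WT replicate 1 or without bulge WT replicate 2, was 2 without bulge cKO replicate 2, 4 without bulge WT replicate 3, without IFE cKO replicate 3 or without IFE WT replicate 1, 11 without bulge cKO replicate 1 and 19 without bulge cKO replicate 4. The count over all genes moved with it: 656 with every array, it was 116 to 185 in the 3 fits with no member called, 987 without bulge cKO replicate 1 and 2553 (14.9% of all genes, against 19.8% of the set) without bulge cKO replicate 4. Without bulge cKO replicates 2 and 3 together 1 gene passed, Cyp2j9 (0.45, adjusted p = 0.0291), which is none of the 7.

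The largest increases among the 7 calls were in the Ugt1a locus, whose enzymes attach glucuronic acid to phenols and other compounds. Ugt1a6a read 9.09, 9.14, 8.96 and 8.67 on bulge cKO arrays against 8.08, 7.92 and 8.41 on bulge WT arrays (0.83 ± 0.16, SE; limma adjusted p = 0.0183). Ugt1a9 read 7.92, 7.85, 7.73 and 7.52 on bulge cKO arrays against 6.53, 6.88 and 7.24 on bulge WT arrays (0.87 ± 0.17, SE; adjusted p = 0.0187). All 4 cKO arrays of both genes were above all WT arrays, and replicates 2 and 3, on which IFE genes were high, did not stand out from replicates 1 and 4. Without these 2 arrays the differences were 0.74 and 0.84, and neither passed (limma adjusted p = 0.179 and 0.163). The other Ugt1a6a probe set gave 0.87 (limma adjusted p = 0.0036 over all probe sets). The third Ugt gene above background, Ugt3a1, had an interval from -0.05 to 0.55. Between WT bulge and WT IFE, Ugt1a9 differed by -0.48 without overlap of arrays (limma adjusted p = 0.0528) and Ugt1a6a by -0.26 (adjusted p = 0.26). That difference of Ugt1a9 was called with cyclic loess, with median centring or with a filter on dim probe sets.

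In IFE cells the same 2 genes had the smallest p-values of the set, without passing the adjusted threshold. Ugt1a6a read 8.69, 9.15, 9.20 and 9.23 on IFE cKO arrays against 8.40, 8.56 and 8.24 on IFE WT arrays (0.67 ± 0.16, SE; limma adjusted p = 0.104). Ugt1a9 read 7.69, 7.97, 8.21 and 8.24 on IFE cKO arrays against 7.34, 7.50 and 7.26 on IFE WT arrays (0.66 ± 0.17, SE; adjusted p = 0.129). The groups did not overlap in either gene, cKO replicate 1 being the lowest of the cKO arrays. The other Ugt1a6a probe set gave 0.76 in IFE (limma adjusted p = 0.017 over all probe sets), and Ugt1a6a also passed without IFE cKO replicate 1 (0.79, adjusted p = 0.0351). The difference of the effects, bulge minus IFE, was 0.16 for Ugt1a6a (95% interval -0.32 to 0.65) and 0.21 for Ugt1a9 (-0.30 to 0.73), and neither was called.

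**Figure D4:**
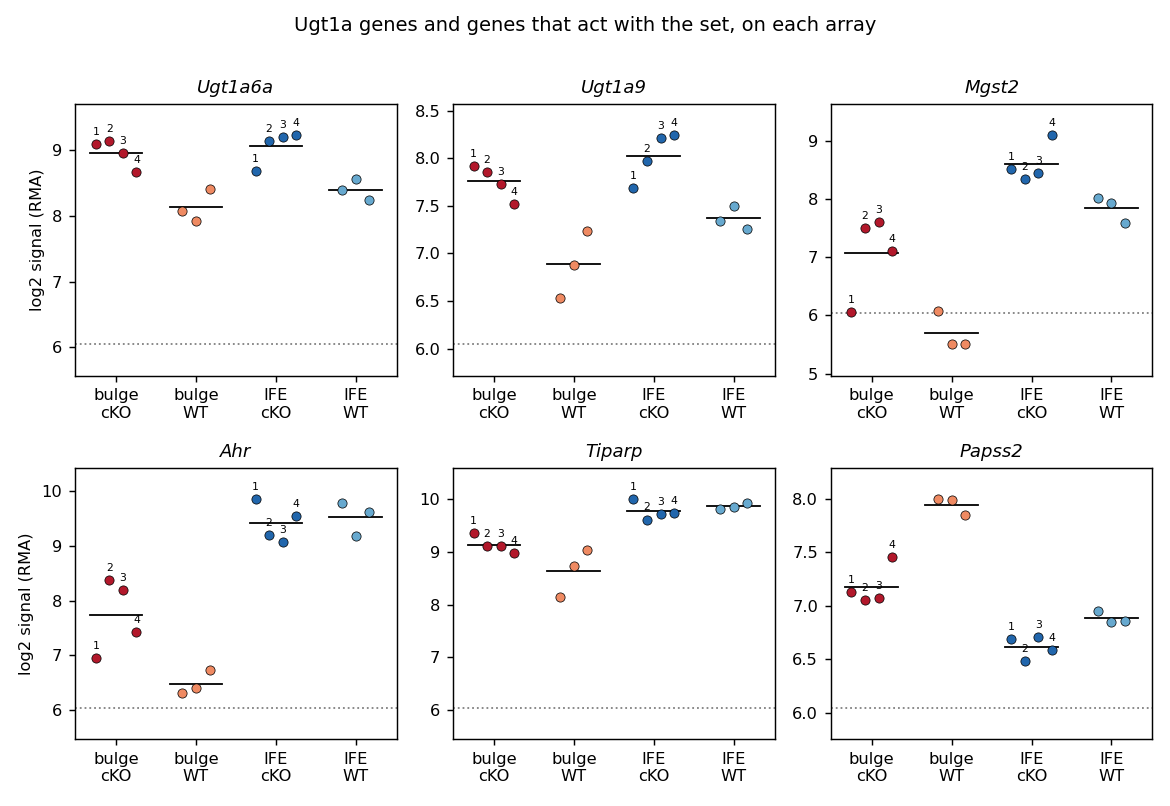
Log2 signal of Ugt1a6a, Ugt1a9, Mgst2, Ahr, Tiparp and Papss2 (vertical axes differ between panels and do not start at 0) on every array of the bulge cKO, bulge WT, IFE cKO and IFE WT groups, with cKO replicates numbered, group means as bars and the background level of 6.04 dotted. Both Ugt1a genes are higher on every cKO array than on any WT array of the same compartment, while Ahr and Mgst2 are highest on replicates 2 and 3 among the bulge cKO arrays.

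The P450 genes moved both ways in the cKO bulge. Cyp2d22, high in the WT bulge, was lower: it read 6.22, 5.50, 5.69 and 6.66 on bulge cKO arrays against 7.79, 7.16 and 7.07 on bulge WT arrays (-1.32 ± 0.25, SE; limma adjusted p = 0.0178). All cKO arrays were under all WT arrays, replicates 2 and 3 being the lowest; without these 2 the difference was -0.90 (adjusted p = 0.133). The other Cyp2d22 probe set, at background, gave -0.45 and was not called (limma adjusted p = 0.0997 over all probe sets). In the IFE, at background, it differed by 0.02. Cyp2j6, high in the WT IFE, was higher in the bulge cKO: it read 6.92, 7.46, 7.36 and 7.34 on cKO arrays against 6.84, 6.48 and 6.78 on WT arrays (0.57 ± 0.12, SE; adjusted p = 0.0242). The lowest cKO array was close to the highest WT array, and without replicates 2 and 3 the difference was 0.43 (adjusted p = 0.24). Cyp1b1 read 9.94, 8.80, 8.84 and 9.78 on bulge cKO arrays, with replicates 1 and 4 above and replicates 2 and 3 within the WT range of 8.71 to 9.31 (0.37, 95% interval -0.60 to 1.34).

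Cyp2b19, a P450 of differentiating mouse keratinocytes that epoxidises arachidonic acid, had like values in both compartments but was not called. It read 5.17, 6.42, 5.84 and 5.65 on bulge cKO arrays against 5.08, 4.55 and 4.94 on bulge WT arrays (0.91, limma adjusted p = 0.0885). In IFE it read 5.74, 6.43, 6.39 and 5.47 on cKO arrays against 5.11, 4.78 and 5.28 on WT arrays (0.95, adjusted p = 0.229). The cKO arrays were above the WT arrays in each compartment, with replicates 2 and 3 the highest and all group means under the background level. Without bulge cKO replicates 2 and 3 the bulge difference was 0.55 (adjusted p = 0.582). Differentiation markers were high on the same bulge cKO arrays, and in IFE they averaged 8.93, 9.30, 9.25 and 9.03 on cKO arrays against 8.51 to 9.11 on WT arrays; their part was not tested.

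The other calls were small. Aldh4a1 read 6.81, 6.87, 6.82 and 6.96 on bulge cKO arrays against 7.09, 7.02 and 7.10 on bulge WT arrays (-0.21 ± 0.05, SE; limma adjusted p = 0.0375). Aldh1l1 (-0.35, adjusted p = 0.0413) and Sult6b1 (0.21, adjusted p = 0.0383) were at background, and the other Aldh1l1 probe set gave 0.06. Without replicates 2 and 3 the differences were -0.19 for Aldh4a1, -0.27 for Aldh1l1 and 0.26 for Sult6b1, and none of them passed. Several enzymes that were higher in the WT bulge had lower signals on cKO arrays without being called: Nqo1 (-0.53, adjusted p = 0.0558), Ephx1 (-0.50, adjusted p = 0.0695), Aldh6a1 (-0.45, adjusted p = 0.0675), Aldh7a1 (-0.38, adjusted p = 0.0561) and Aldh2 (-0.36, adjusted p = 0.0566). Nqo1 read 6.31, 6.15, 6.17 and 6.72 on bulge cKO arrays against 7.02, 6.83 and 6.73 on bulge WT arrays, so that cKO replicate 4 came within 0.01 of the lowest WT array. Without replicates 2 and 3 all 5 differences were nearer 0, at -0.35 for Nqo1, -0.23 for Ephx1, -0.30 for Aldh6a1, -0.29 for Aldh7a1 and -0.26 for Aldh2. The bulge stem cell markers moved the same way: all 14 had negative differences, with a median of -0.53 (-0.17 without the 2 arrays). None was called and 7 had an unadjusted p under 0.05 in limma, which 25.7% of all genes passed. Their part in these values was not tested. Other genes higher in the WT bulge had positive differences without being called: Cyp1b1 (0.37), Gstm4 (0.24), Gstk1 (0.21), Cyp2j9 (0.18), Aldh3a2 (0.14), Gstm2 (0.05) and Gstt1 (0.04). The same bulge WT arrays entered both comparisons, so the 2 are not independent.

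None of the 16 Gst genes was called in the bulge cKO by limma, 2 (12.5%) having an unadjusted p under 0.05, where 25.7% of all genes had. Of the enzymes of glutathione synthesis, Gclm differed by -0.21 (95% interval -0.60 to 0.18) and Gclc by -0.15 (-0.58 to 0.28), and both changed sign without replicates 2 and 3, to 0.12 and 0.19. The genes with the highest bulge values against WT among those not called were IFE genes that followed replicates 2 and 3. Gsta2 read 4.82, 6.77, 6.50 and 5.42 on bulge cKO arrays against 4.65, 4.42 and 4.83 on bulge WT arrays (1.24, limma adjusted p = 0.0934; 0.49 without replicates 2 and 3), and its other probe set gave 0.41. Aldh3b2 read 7.28, 8.85, 8.66 and 7.58 against 6.93, 6.58 and 7.38 in the same order of groups (1.13, adjusted p = 0.0763; 0.46 without them). Sult2b1 read 5.25, 7.03, 6.77 and 6.12 on bulge cKO arrays against 5.60, 4.96 and 5.46 on bulge WT arrays (0.95, adjusted p = 0.122; 0.35 without them). In each, replicates 2 and 3 lay far above the WT arrays and replicate 1 lay within or beside their range. The differentiation markers were high on the same 2 arrays. Of these 16 markers 3 (18.8%) were called higher in the bulge cKO, where 1.98% of all genes were, and none lower. Their median difference was 1.26 (0.68 without the 2 arrays). The part of these markers in the values above, and that of the sebaceous, Langerhans and T cell markers, was not tested.

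**Figure D5:**
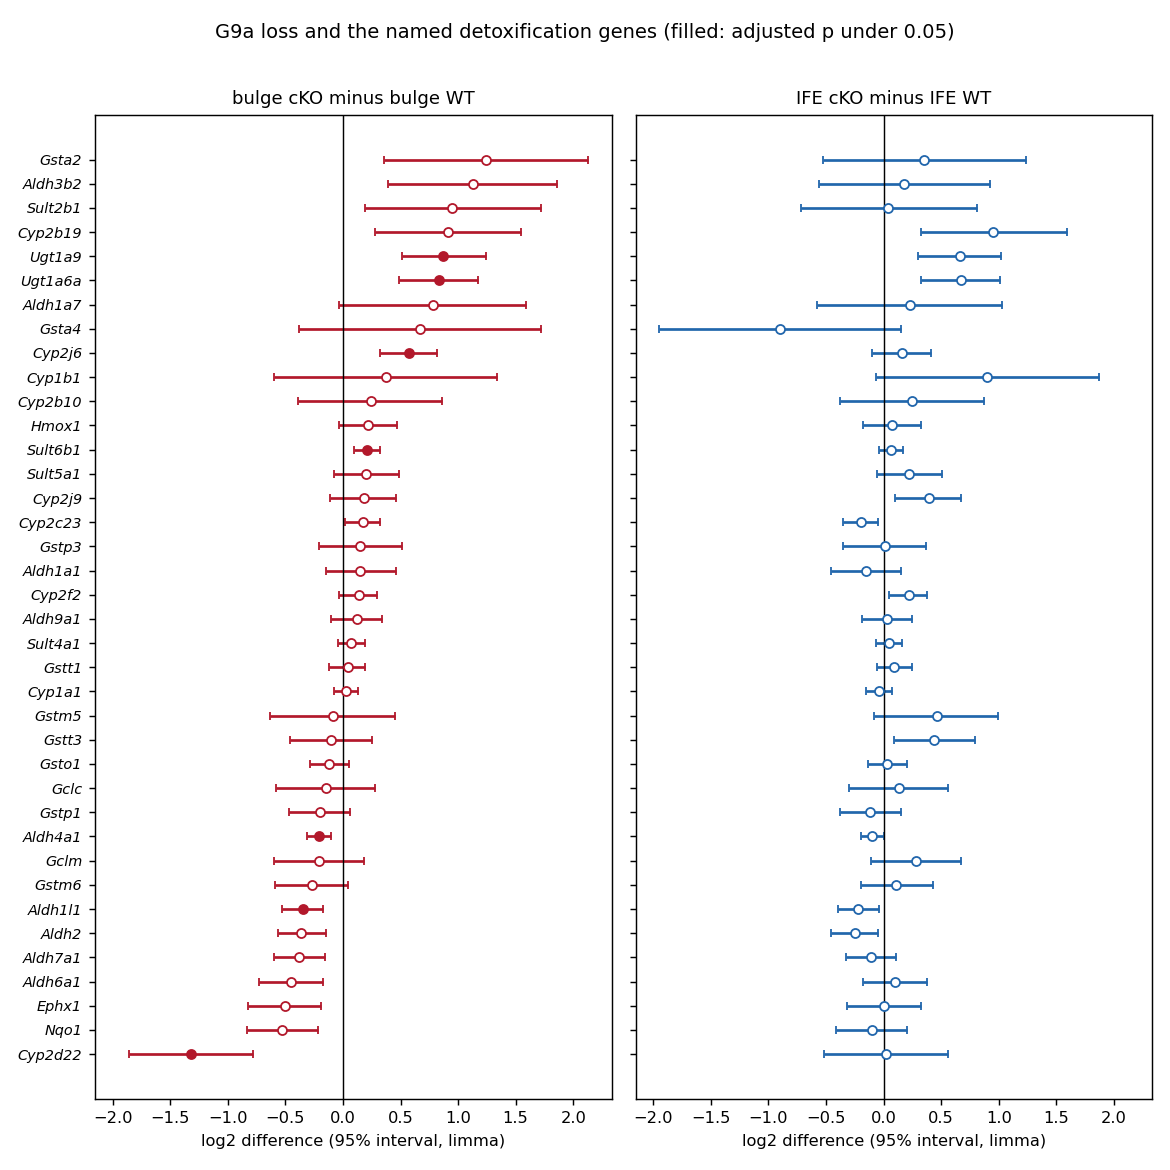
Log2 difference with its 95% interval from limma (horizontal axes) for 38 named genes in bulge cells (left, cKO minus WT) and IFE cells (right, cKO minus WT), n = 4 cKO and 3 WT arrays in each, ordered by the bulge value. Filled points passed an adjusted p of 0.05; 7 are filled in the bulge and none in the IFE, where the intervals of Ugt1a6a (0.67) and Ugt1a9 (0.66) do not reach 0.

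In the IFE none of the 96 genes was called between cKO and WT by limma, where 0.497% of all genes were. At an unadjusted p under 0.05 there were 15 genes, 15.6% of the set, where 11.0% of all genes passed, and the groups did not overlap in 19 genes, 19.8% against 11.0% of all genes. Besides the genes above, the smallest p-values belonged to Cyp2j9, Cyp2c23 and Cyp2f2, each under the background level in IFE. Cyp2j9 read 5.68, 5.84, 5.85 and 5.91 on IFE cKO arrays against 5.53, 5.44 and 5.34 on IFE WT arrays (0.39, limma adjusted p = 0.293). Cyp2c23 differed by -0.20 (adjusted p = 0.296) and Cyp2f2 by 0.22 (adjusted p = 0.296). Gsta4 was low on 3 of 4 cKO arrays, with 7.57, 7.46, 8.12 and 9.31 on IFE cKO arrays against 9.67, 9.33 and 8.05 on IFE WT arrays, but the groups overlapped (-0.90, adjusted p = 0.544). Without IFE cKO replicates 2 and 3 the count of calls was again 0, where 37 of all genes were called, against 85 with every array. In that fit of fewer arrays 5 members had an unadjusted p under 0.05 in limma. The share of all genes that did so was not counted.

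The effects of the knockout were not shown to differ between bulge and IFE for any of the 96 genes. None passed for the difference of the 2 effects in limma, where 0.105% of all genes did, and 15 genes (15.6%) had an unadjusted p under 0.05 where 14.1% of all genes had. Cyp2d22 had a difference of effects of -1.34 (95% interval -2.11 to -0.57; limma adjusted p = 0.188) and Gsta4 of 1.57 (adjusted p = 0.335). Without bulge cKO replicate 4 the count was 3 (3.12%), namely Aldh6a1, Cyp2c23 and Cyp2d22, and that over all genes was 240 (1.40%), against 18 with every array.

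Of the 58 genes that act with the set, 4 (6.90%, against 3.84% of all genes) were called in the bulge cKO and none in the IFE cKO by limma. In the IFE, 5 (8.62%) had an unadjusted p under 0.05, against 11.0% of all genes. Papss2 read 7.13, 7.05, 7.07 and 7.46 on bulge cKO arrays against 8.00, 7.99 and 7.85 on bulge WT arrays (-0.77 ± 0.09, SE; limma adjusted p = 0.00137), and passed in all 14 fits that left out 1 array and without replicates 2 and 3 together (-0.65, adjusted p = 0.02). All cKO arrays were under all WT arrays. Papss2 is a bulge gene by the WT comparison, and the bulge stem cell markers also had negative differences in the bulge cKO. Their part in the Papss2 value was not tested. In IFE Papss2 read 6.69, 6.48, 6.71 and 6.59 on cKO arrays against 6.95, 6.85 and 6.86 on WT arrays, also without overlap (-0.27, limma adjusted p = 0.293).

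Ahr itself read 6.95, 8.38, 8.20 and 7.42 on bulge cKO arrays against 6.32, 6.41 and 6.73 on bulge WT arrays (1.25 ± 0.31, SE; limma adjusted p = 0.0462). Mgst2 read 6.05, 7.50, 7.60 and 7.10 on bulge cKO arrays against 6.07, 5.51 and 5.50 on bulge WT arrays (1.37 ± 0.32, SE; adjusted p = 0.04). Both are IFE genes by the WT comparison and were highest on replicates 2 and 3; without these the differences were 0.70 and 0.88 (adjusted p = 0.361 for each). Leaving out single arrays, the adjusted p of Ahr ran from 0.00981 to 0.171 and that of Mgst2 from 0.00199 to 0.156. Nat1, an N-acetyltransferase, differed by 0.17 at background (adjusted p = 0.0313). In the IFE, Ahr differed by -0.12 (adjusted p = 0.945) and Mgst2 by 0.75 (adjusted p = 0.421).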

How the data were processed

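Affymetrix arrays measured RNA of mouse epidermal cells, which was amplified to cDNA and biotin-labelled, as the labels' protocols state. The authors deposited log2 signals per probe set made with RMA, per the submitters' processing notes, which give no version. RMA sets the quantiles of all arrays equal, so a shift common to most genes would not be seen; array medians lay between 5.76 and 5.84. Arrays have no read depth, and their number limits the precision. Of 45141 probe sets, 28898 had a single gene symbol (platform annotation, updated through RefSeq GRCm38.p6); the probe set with the highest mean over 14 arrays stood for each of 17097 genes, including 23 members with several. No dim probe set was removed. All 14 arrays entered 1 limma fit (limma 3.58.1, R 4.3.3; lmFit and eBayes, 4 group means, residual degrees of freedom 10), two-sided, with Benjamini-Hochberg adjustment over all genes; the code was tested on simulated data. The members, gene lists and tests were chosen with earlier results of these data known. Named members were all those called with G9a genotype, the 12 largest differences in each direction between compartments, the 2 highest members of each family, the 5 redox genes and the 6 smallest p-values of each genotype comparison; named pathway genes were Ahr, Arnt, Ahrr, Tiparp, Nfe2l2 and up to 4 called per list. Keap1, also named by the rule, had no probe set of a single symbol. Gstm3 and Ugt3a1 were added after their values were seen. The alternatives were other normalizations, probe set choices, filters, thresholds and models, a replicate block, and leaving out arrays; leaving out IFE cKO replicates 2 and 3 was chosen after seeing the data. Over all genes same-numbered arrays did not deviate together, though replicates 2 and 3 stood apart in both cKO groups. Whether same-numbered arrays share a source was not tested, and the numbers were not taken as pairs. Figures were drawn with matplotlib 3.10.9.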

Additional observations from a re-analysis of the deposited data

Results flagged for a closer look

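Among 76 groups of 4 arrays checked (38 named members in 2 cKO groups), 5 held an array far from the other 3 by Dixon's criterion, where chance gives about 1 in 20. Bulge cKO replicate 4 was high for Aldh2, at 10.88 with the others at 10.50 to 10.51, and for Aldh7a1, at 8.60 with the others at 8.24 to 8.26; for Aldh2 it lay within the range of the WT arrays. Bulge cKO replicate 1 was low for Aldh9a1, at 9.58 with the others at 9.89 to 9.94. IFE cKO replicate 1 was low for Gstt3, at 8.21 with the others at 8.48 to 8.53, and for Ugt1a6a, at 8.69 with the others at 9.15 to 9.23.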

How the results depend on the processing

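The compartment differences were the steadiest result. Over 14 single arrays left out, 27 to 37 members were called against 36, and 28.1% to 36.2% of all genes against 35.1%. A filter on dim probe sets gave 23 (34 members tested), with 4587 of the 9442 genes kept. A fold of at least 1.5 gave 21 members. With median centring of the arrays, 22 of the calls were higher and 19 lower (53.7% higher against 63.9%), and of all genes 42.5% were higher against 52.6%; between bulge cKO and WT 41.5% of all calls were higher against 51.7%. The 7 calls between bulge cKO and WT became 0 to 19 over single arrays left out, 0 with only the groups compared in the fit, 1 without bulge cKO replicates 2 and 3, 3 without IFE cKO replicates 2 and 3, 3 with a filter on dim probe sets, 3 with unmarked probe sets only (82 members tested, without the Ugt1a genes), 3 with a fold of at least 1.5, and 18 at an adjusted p under 0.1. Over all genes the 656 calls became 116 to 2553 over single arrays left out, 72 with only the groups compared and 387 with the filter. They became 599 with unmarked probe sets, 116 without bulge cKO replicates 2 and 3 and 302 without IFE cKO replicates 2 and 3. For the fold of at least 1.5 and the adjusted p under 0.1 all genes were not counted. Those member counts therefore have no share of all genes to be set against. Array weights gave 52 member calls between bulge cKO and WT, 10 in IFE and 34 for the difference of effects. Over all 17097 genes the weights gave 8242, 1458 and 4974 calls in the same order. Their estimation stopped before it converged, with a weight of 15.48 on bulge cKO replicate 3 and of 0.28 on replicate 4. In IFE the count of 0 became 1 with the mean of probe sets, the largest interquartile range, every probe set, without IFE cKO replicate 1 (each Ugt1a6a) and without bulge cKO replicates 2 and 3 (Cyp2j9), and ran from 0 to 1 over single arrays left out. The difference of effects ran from 0 to 3 over them. Over all genes these fits called 38 to 107 in IFE and 3 to 240 for the difference. With unmarked probe sets, Aldh1l1 changed sign, to 0.06 between bulge cKO and WT and to -0.03 between WT compartments. Same-numbered arrays correlated at -0.62 to 0.25 in their deviations from group means over all genes. Yet replicates 2 and 3 held the highest fibroblast marker means in both cKO groups (6.50 and 6.24 in bulge, 6.06 and 6.02 in IFE). Whether same-numbered arrays share a source was not tested. With a replicate block 5 members were called in the bulge (412 of all genes, against 656), 4 of them among the 7. The block gave 0 members in IFE, 0 for the difference and 33 between compartments. Over all genes it gave 33 in IFE, 2 for the difference and 5374 between compartments. Of 1694 values of 63 named results under the alternatives, 1530 kept direction and side of the threshold, 151 lost and 11 gained the call, and 2 changed sign. Signal limits 58 members, which lay near background.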
